A study of Mus musculus with 16 samples.

Results

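Translation efficiency across the range of mRNA length was compared between adult neural stem cells with and without FMRP. Translation efficiency (TE) of a gene in a culture was the log2 CPM (counts scaled to a fixed library size) of its ribosome footprints minus the log2 CPM of its cytoplasmic RNA in the same culture. Of 20409 genes in the table, 9102 had a mean count of at least 50 per library in RNA and in footprints, and 9100 of these also had the TPM sum of at least 8 needed for a length estimate. These 9100 genes were ranked by this length estimate and divided into 10 bins of 910 genes, with bin 1 the shortest and bin 10 the longest. The estimate was the ratio of summed RNA counts to summed RNA TPM, and it is given relative to the median gene. Whether it stands for the whole mRNA or only a part, such as the coding sequence, was not tested. Short and long below refer to this estimate. The median gene of bin 1 was 0.187 times as long as the median of all binned genes and that of bin 10 was 3.68 times as long.

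Male FVB/N mice aged 8 to 10 weeks gave the dentate gyrus cells, and they were either wild type (WT) or Fmr1 -/y (KO) littermates. All were grown as proliferating cultures in EGF and FGF-2 at 20 ng/ml each, and all received cycloheximide at 100 µg/ml for 10 min before harvest. Each genotype had 4 independently isolated cultures, and each culture gave an RNA library and a footprint library, 16 libraries in all. Whether a culture came from 1 animal or from pooled animals is not given in the sources used here. KO and WT cultures were compared by replicate number, giving 4 pairs, and each pair's difference was centred on its median over all binned genes.

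FMRP, the product of Fmr1, is an RNA-binding protein that associates with polyribosomes, and its loss causes fragile X syndrome. In the brain it binds many long coding sequences, which encode synaptic, cytoskeletal and chromatin proteins, and it is best known as a repressor that slows ribosomes. Short mRNAs, such as those of ribosomal proteins, are a different class, often carrying a pyrimidine tract at their start through which growth signals control their translation.

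RNA libraries held 5330018 to 6580305 counts and footprint libraries 9397586 to 17147612. Footprint libraries of replicates 1 and 2 carried identifiers of 5 nt and those of replicates 3 and 4 of 8 nt. The replicates also separated in this way in the length dependence of both assays, as given below, and WT replicate 2 had the steepest RNA slope on length. Of the neural stem and progenitor markers, 13 of 13 were among the binned genes, with a summed RNA level of 9214 to 12347 CPM in WT and 7937 to 9402 CPM in KO cultures. The KO cultures thus ranged lower with an overlap. Neuronal markers summed to 266 to 723 CPM in WT and 303 to 648 in KO, astrocyte markers to 472 to 2085 and 848 to 2154, and oligodendrocyte lineage markers to 1279 to 1700 and 1083 to 1782. Microglial markers summed to at most 3.00 CPM, with Aif1, Cx3cr1 and Ptprc at 0 in every RNA library. The part of these marker levels in the results below was not tested, and in bulk samples fewer cells of a type and less RNA per cell cannot be told apart.

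Fmr1, the targeted gene, lay in bin 6. Its footprints were at 130, 151, 147 and 146 CPM in WT cultures 1 to 4 and at 24.4, 26.5, 12.7 and 15.1 CPM in KO cultures 1 to 4. Its RNA was at 39.0, 109, 38.1 and 27.2 CPM in WT and at 8.38, 30.8, 11.1 and 3.34 CPM in KO. Footprints of the 4 KO cultures were all below those of the 4 WT cultures, whereas RNA of KO culture 2 was above that of WT culture 4. The KO minus WT TE of Fmr1 was -0.12, -0.68, -1.75 and -0.34 in pairs 1 to 4, and its fitted log2 change of -0.94 ± 0.75 (SE) had an adjusted p of 1 (edgeR).

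TE was lower in longer mRNAs in every culture of both genotypes. Scaling both assays to the same length would leave TE unchanged. RNA CPM rose with length, at slopes of 0.22 to 0.50 per doubling, and footprint CPM changed less with length in each culture. How much of this gradient reflects translation was not tested. The slope of TE on log2 length was -0.44, -0.54, -0.38 and -0.39 per doubling in WT cultures 1 to 4 and -0.44, -0.47, -0.37 and -0.36 in KO cultures 1 to 4. In each pair the KO slope was the flatter, by 0.002, 0.07, 0.012 and 0.031, with a mean difference of 0.029 ± 0.030 (SD, n = 4). The sign in pairs 1 and 3 depended on the setting. At a mean count of 200 they were at -0.0023 and -0.0033. With slopes through the 10 bin medians of the main gene set they were at -0.0041 and -0.0028. At a TPM sum of 80 pair 1 was at -0.010. With RNA and footprint abundance as covariates pair 1 was at 0.055. Pairs 2 and 4 kept the sign under these settings. The WT and KO slopes overlapped, and the WT cultures alone spanned 0.158, a wider range than any pair difference. Slopes also differed between replicates 1 and 2 and replicates 3 and 4, by -0.0962 per doubling. The mean difference between genotypes was 0.0361 within replicates 1 and 2 and 0.0218 within replicates 3 and 4. It was 0.0152 without pair 2. Leaving out WT culture 2 alone, with KO culture 2 kept, gave -0.00513, which turned the direction. That value is a difference of unpaired means, so it also carries the split between replicates.

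**Figure D1:**
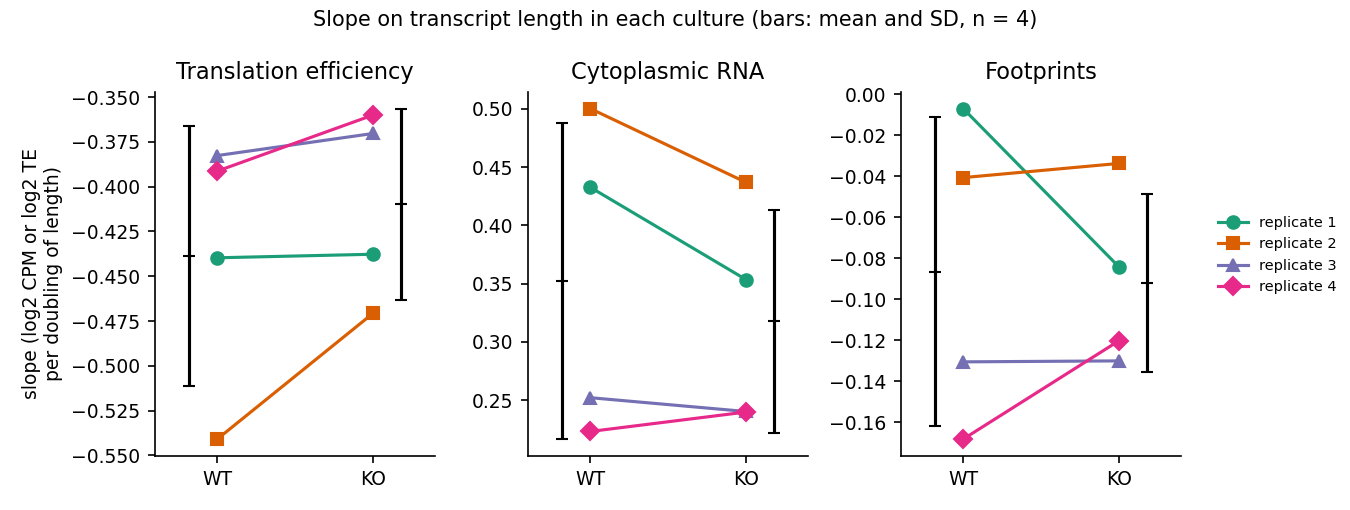
Least-squares slope on log2 length of TE, RNA and footprints in each culture, with WT left and KO right in each panel, lines joining cultures of the same replicate number, and bars for the mean and SD of 4 cultures. The TE slopes of KO cultures, -0.47 to -0.36, lie within or just above the WT slopes of -0.54 to -0.38.

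The shift between short and long mRNAs was large in pair 2, smaller in pair 4 and near 0 in pairs 1 and 3. In bin 1, the median KO minus WT TE was 0.03, -0.28, -0.01 and -0.02 in pairs 1 to 4. In bin 10 it was 0.01, 0.06, 0.00 and 0.06. Bin 1 thus stood low in pair 2 and near 0 in the other pairs, and bin 10 stood slightly high in pairs 2 and 4. The difference between bin 10 and bin 1 was -0.02, 0.34, 0.02 and 0.08, with a mean of 0.10 ± 0.16 (SD, n = 4). The 0.34 of pair 2 was a ratio of 1.26. The mean ran from -0.0266 to 0.176 when each culture was left out in turn with its partner kept. The lowest value was that without WT culture 2. Within a bin, the middle 50% of genes spanned 0.289 to 0.454 in a pair, against bin medians that lay between -0.28 and 0.09. The culture medians showed where pair 2 differed. The TE of bin 1, centred on each culture's median, was 1.44, 1.81, 1.30 and 1.38 in WT and 1.46, 1.47, 1.27 and 1.35 in KO. WT culture 2 stood above the other 7 cultures, which lay between 1.27 and 1.47. In bin 10, the same medians were -0.76, -0.74, -0.63 and -0.71 in WT and -0.82, -0.71, -0.62 and -0.61 in KO, with overlapping genotypes.

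**Figure D2:**
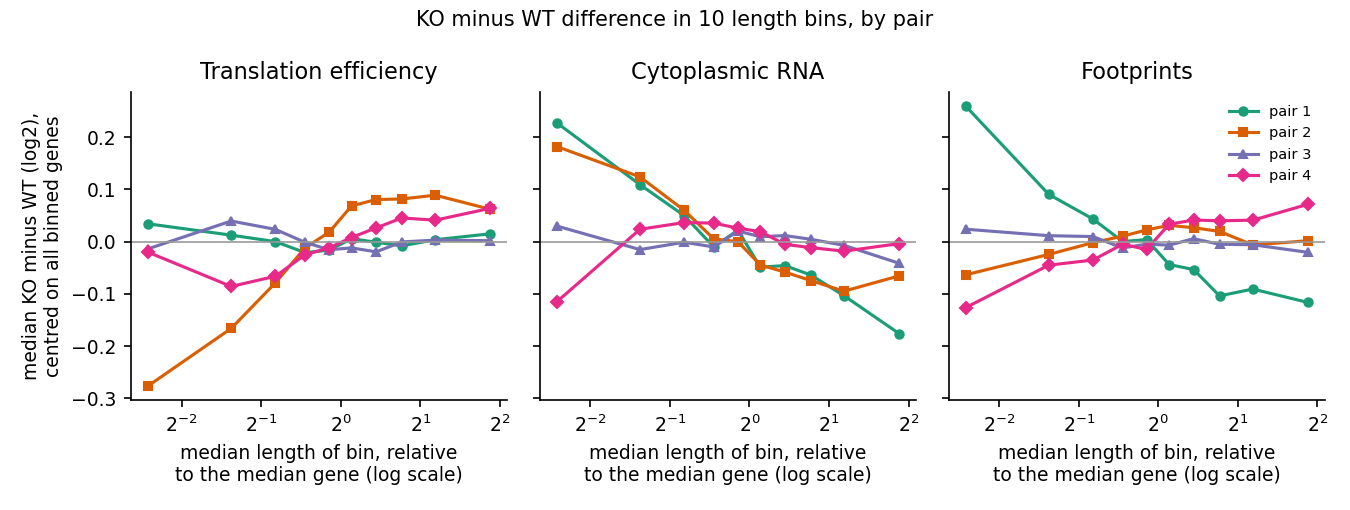
Median KO minus WT difference in TE, RNA and footprints (log2, centred on all binned genes) in each of the 10 length bins, with a line for each pair. In TE, pair 2 runs from -0.28 in bin 1 to 0.06 in bin 10, while pairs 1 and 3 stay within 0.04 of 0 in every bin.

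The gradients came from different assays in different pairs. The RNA slope on length was 0.43, 0.50, 0.25 and 0.22 per doubling in WT and 0.35, 0.44, 0.24 and 0.24 in KO cultures 1 to 4. The KO minus WT difference was -0.0793, -0.0634, -0.0119 and 0.0167, with a mean of -0.0345 ± 0.0446 (SD, n = 4). Without WT culture 2 but with KO culture 2 kept, the difference of unpaired means was 0.015. The footprint slope was -0.0069, -0.0406, -0.130 and -0.168 in WT and -0.0842, -0.0337, -0.130 and -0.120 in KO. Its difference was -0.0773, 0.0069, 0.0005 and 0.048, with a mean of -0.0055 ± 0.0523 (SD, n = 4). In pair 1, RNA and footprints of long mRNAs were lower in KO by almost the same slope, and TE was flat. In pair 2 the difference lay in RNA and in pair 4 mostly in footprints. In pair 3 all were near 0. RNA slopes were steeper by 0.192 and footprint slopes higher by 0.0959 in replicates 1 and 2 than in 3 and 4, so each KO minus WT mean was smaller than the split between replicates.

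Counts of genes with the same direction in all 4 pairs were also unequal along the length range. Over all binned genes, 558 had a higher KO TE in 4 of 4 pairs (6.13%) and 558 a lower one (6.13%). In bin 1, 29 genes were higher (3.19%) and 84 lower (9.23%), and in bin 2 the counts were 25 and 87. In bin 10, 77 genes were higher (8.46%) and 32 lower (3.52%). In bins 1 to 5 together, 187 were higher and 367 lower, against 371 and 191 in bins 6 to 10. The imbalance of bin 1 rested on pair 2. Without it, 89 genes of bin 1 were higher (9.78%) and 105 lower (11.5%), against 11.7% and 11.8% of all binned genes. Bins 2 and 4 remained unequal without pair 2, with 82 higher and 118 lower in bin 2 and 81 higher and 130 lower in bin 4. In bin 10 without pair 2, 150 genes were higher (16.5%) and 82 lower (9.01%). Genes whose 4 KO cultures were all above the 4 WT cultures numbered 17 (0.187%), 5 of them in bins 1 to 5. Genes whose 4 KO cultures were all below numbered 47 (0.516%), 28 of them in bins 1 to 5.

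**Figure D3:**
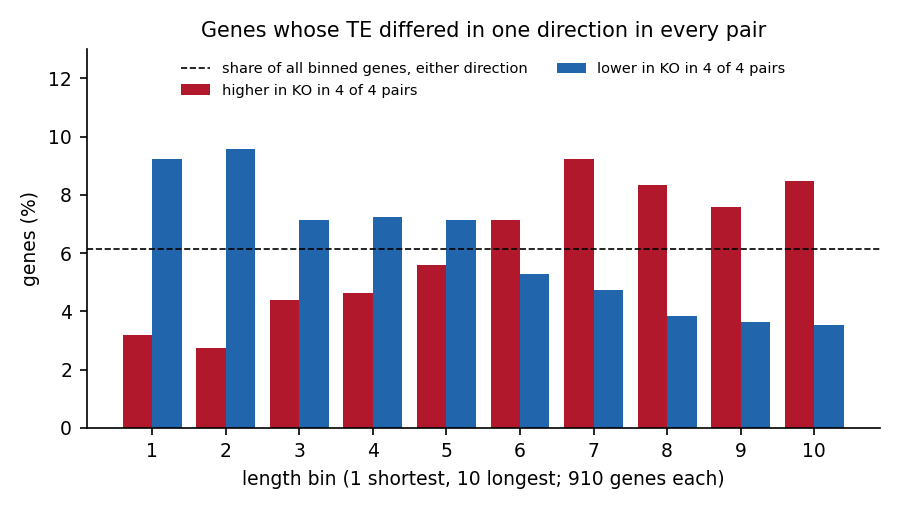
Percent of the 910 genes of each length bin with a KO TE above WT, or below WT, in 4 of 4 pairs; the horizontal line is the share over all binned genes, 6.13% in each direction. The lower share exceeds the line in bins 1 to 5, and the higher share exceeds it in bins 6 to 10.

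No single gene passed the test of TE. The interaction of assay and genotype in edgeR, over 10863 genes and all 16 libraries, gave 0 genes at an adjusted p of 0.05. At an unadjusted p of 0.05 it gave 7 higher (0.0644%) and 7 lower (0.0644%), none of them binned. This main fit had no term for culture or replicate, so the RNA and footprint libraries of a culture were taken as independent. Its p-values therefore leave the pairing unused. With no effect and well-calibrated p-values, about 5% of genes, both directions together, would fall under 0.05. The main fit lay far below that share, so its 0 genes do not show that TE was unchanged. DESeq2 called 0 genes with 11 and 10 at the unadjusted threshold, and limma-voom 0 with 13 and 7. A fit with culture as a term, chosen after seeing the data, also called 0 genes. At its unadjusted threshold, 34 binned genes were higher (0.374%) and 41 lower (0.451%). Of the 34 higher, 25 lay in bins 6 to 10, and of the 41 lower, 31 lay in bins 1 to 5. With the replicate block added to that fit, 0 genes were called, with a smallest adjusted p of 0.321 (edgeR). At the unadjusted threshold 170 binned genes were then higher (1.87%), 128 of them in bins 6 to 10, and 149 lower (1.64%), 116 of them in bins 1 to 5. These splits by bin come from the same libraries as the slopes and are not separate support for them. The fits with culture as a term were not rerun without pair 2 or without single cultures. In data simulated with each library independent, the main interaction test recovered 66% of genes changed by a log2 of 2 and 5% of those changed by 1. The fits with culture as a term were not run on simulated data, so this recovery does not show what they could detect.

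The 10 binned genes of smallest p had edgeR p from 0.0584 to 0.0967, each with an adjusted p of 1. Prkag2, a regulatory subunit of the AMP-activated kinase in bin 4, had the smallest. Its centred TE was -0.27, -0.61, -0.18 and -0.09 in WT and -0.79, -1.00, -0.76 and -0.87 in KO, with no overlap. Its mean KO minus WT TE was -0.55 ± 0.17 (SD, n = 4). Its RNA was 32.5, 30.2, 24.8 and 27.1 CPM in WT and 49.6, 44.9, 52.9 and 39.1 CPM in KO, higher in each KO culture than in any WT culture. Ndrg4 in bin 3 had a mean difference of 1.65 ± 1.22, with RNA of 10.7, 21.1, 8.94 and 5.76 CPM in WT and 6.57, 8.94, 3.18 and 2.28 CPM in KO. Zxdb in bin 8 averaged 0.58 ± 0.67, which did not exceed its spread. Zfp235, Wwox, Nat6, Pm20d2, Tmem14c and Tmco6 were lower in KO in the mean, from -0.51 for Tmem14c in bin 1 to -0.65 for Wwox in bin 4.

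Cytosolic ribosomal protein mRNAs are among the shortest, and 72 of 76 were binned, 65 of them in bins 1 and 2. Their TE did not follow genotype. The median KO minus WT difference was 0.50, -0.38, 0.11 and -0.11 in pairs 1 to 4, and 71, 2, 51 and 22 of the 72 were higher in KO. None had the same direction in 4 of 4 pairs. The group's median TE was 0.64, 1.74, 1.20 and 1.35 in WT cultures and 1.06, 1.34, 1.36 and 1.31 in KO cultures. The WT cultures held both the lowest and the highest value, and the 4 KO cultures lay between them. In pair 1 the difference was in footprints, at 0.71 against 0.20 for RNA, and in pair 2 it was in RNA, at 0.27 against -0.08 for footprints. Rps2 and Rplp0, the most abundant members, had mean differences of 0.00 ± 0.24 and 0.08 ± 0.30. Values of ribosomal protein genes with near-identical pseudogene copies are uncertain, because the counts divide shared reads.

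The start of these mRNAs is shown because the pyrimidine tract is the feature by which their translation is known to be set. Each line is 30 bases around the annotated start, from RefSeq (GRCm38.p6), 5′ to 3′ on the transcribed strand. Capitals mark the tract, a C followed by at least 4 bases that are each C or T, beginning at the annotated start.
Rps6: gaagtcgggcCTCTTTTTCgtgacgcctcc
Rpl15: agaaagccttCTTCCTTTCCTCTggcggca
Rpl14: ggccctctctCTTCTCgctgagcgccgcca
Rps18: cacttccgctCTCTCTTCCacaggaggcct
Eif3f: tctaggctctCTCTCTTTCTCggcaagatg
Eif2s3x: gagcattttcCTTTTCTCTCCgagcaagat
Rps6 lies at chr4:86857348-86857377 (minus strand), Rpl15 at chr14:18270967-18270996 (minus), Rpl14 at chr9:120571507-120571536 (plus) and Rps18 at chr17:33955646-33955675 (minus). Eif3f, a subunit of an initiation factor, lies at chr7:108934405-108934434 (plus) and Eif2s3x, a subunit of another, at chrX:94212632-94212661 (minus).

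All 4 ribosomal protein mRNAs printed had a higher KO TE in pair 1 and a lower one in pair 2. Rps18, a component of the small subunit, had a centred TE of 0.87, 2.12, 1.30 and 1.76 in WT and 1.43, 1.47, 1.69 and 1.41 in KO cultures. Its KO minus WT difference was 0.58, -0.63, 0.40 and -0.35. Rps6, whose protein is a substrate of S6 kinase, followed with 0.57, -0.45, 0.28 and -0.35, and Eif3f with 0.43, -0.38, 0.09 and -0.17. Eif2s3x, with a tract of 11 bases, had 0.32, 0.13, -0.03 and 0.01. A tract began at 823 of 32851 annotated starts (2.51%). Counted by gene, 813 of 27025 genes in the RefSeq set of starts had one (3.01%), as did 215 of 7040 binned genes with a start (3.05%). The share was 4.52% of genes with a start in bin 1, 2.00% in bin 10 and 22.6% of binned ribosomal protein genes with a start (12 of 53). The 12 had median differences of 0.52, -0.41, -0.05 and 0.06, and the other 41 with a start had 0.50, -0.36, 0.12 and -0.14. The 19 with no start in the RefSeq set had 0.57, -0.42, 0.11 and -0.16. The values of pairs 1 and 2 were of like size with and without the tract. Among other genes of bins 1 to 5, the 112 with a tract had -0.03, -0.17, 0.04 and -0.06, and the 3356 without one had -0.01, -0.09, -0.00 and -0.05. An annotated start can lie some bases from the true cap site, and a gene without a match only lacks these letters at this position.

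Mitochondrial ribosomal proteins, which build the translation machinery inside mitochondria, were lower in the median in each pair, at -0.09, -0.28, -0.02 and -0.04 over 71 of 77 members. Of the 71, 3 were higher in 4 of 4 pairs (4.23%) and 10 lower (14.1%), against 6.13% of all binned genes in each direction. In bin 1, 7 of 37 members were lower (18.9%) against 9.23% of the bin, and in bin 2, 3 of 14 (21.4%) against 9.56%. Their median TE was 1.35, 1.69, 1.10 and 1.05 in WT and 1.15, 1.47, 1.10 and 1.01 in KO, with a wider spread across replicate numbers than between genotypes. In pair 1 their RNA was higher by 0.49 and their footprints by 0.37. Nuclear-encoded subunits of oxidative phosphorylation (61 of 85) had 0.03, -0.18, -0.13 and 0.13, with 1 higher (1.64%) and 5 lower (8.20%) in 4 of 4 pairs, close to the 3.19% and 9.23% of bin 1, which held 39 of them. Atp5b, a catalytic subunit of ATP synthase, averaged -0.03 ± 0.16.

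Replication-dependent histones, whose mRNAs accumulate in S phase and end in a stem-loop, had TE differences of -0.08, -0.29, -0.03 and 0.22 over 43 of 64 genes. Their RNA was higher in KO by 1.90 in pair 1 and their footprints by 1.65, and in pair 4 both were lower, at -0.44 and -0.27. In pair 2 RNA was at 0.21 and footprints at -0.05, so the assays shifted together in pairs 1 and 4 but not in pair 2. Histone genes are near-identical copies and their single values are uncertain. Sm and LSm proteins of the spliceosome had -0.18, -0.32, -0.01 and -0.00 over 8 of 16 genes. Proteasome subunits, at intermediate length, had 0.03, -0.07, -0.06 and 0.04 over 35 of 39 genes. Translation factors had 0.14, -0.09, -0.04 and -0.03 over 62 of 67 genes. Among these, Eef1a1, which brings aminoacyl-tRNA to the ribosome, had a centred TE of -0.71, 0.15, 0.35 and 0.61 in WT and -0.12, -0.21, 0.44 and 0.21 in KO.

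**Figure D4:**
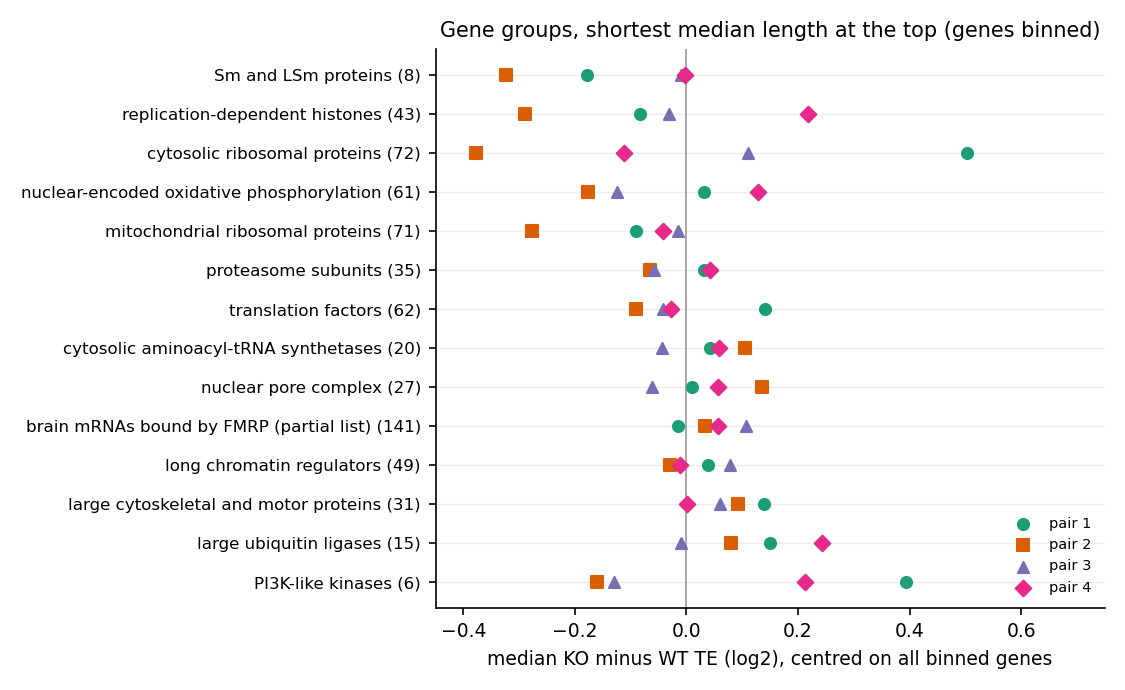
Median KO minus WT TE (log2, centred on all binned genes) of each of 14 gene groups, with a point for each pair and the number of binned genes in brackets. Groups of short mRNAs at the top spread from -0.38 to 0.50 between pairs, and groups of long mRNAs at the bottom lie between -0.06 and 0.24 except the 6 PI3K-like kinases.

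The groups of long mRNAs differed in how steady their sign was over the pairs. Large cytoskeletal and motor proteins, among them spectrins, myosins and dyneins, had 0.14, 0.09, 0.06 and 0.00 over 31 of 34 genes, 28 of them in bin 10. Of the 31, 4 were higher in 4 of 4 pairs (12.9%) and 0 lower, against 8.46% and 3.52% in bin 10. Their median TE by culture was higher in KO in pairs 1 and 3 only. Sptan1, a spectrin, had 1642, 2587, 2310 and 1879 CPM of RNA in WT and 1767, 2216, 2114 and 1577 CPM in KO. Its mean TE difference was 0.05 ± 0.16, and that of Myh9, a non-muscle myosin, was 0.09 ± 0.20, each within its spread. Large ubiquitin ligases (15 genes) had 0.15, 0.08, -0.01 and 0.24, with 3 higher (20.0%) and 1 lower (6.67%) in 4 of 4 pairs, against 8.46% and 3.52% in bin 10, which held 12 of them. Ubr4, 11.9 times as long as the median gene, averaged 0.14 ± 0.32.

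Long chromatin regulators, 46 of 49 in bin 10, had 0.04, -0.03, 0.08 and -0.01, with 5 higher in 4 of 4 pairs (10.2%) and 1 lower (2.04%), against 8.46% and 3.52% of bin 10. Within bin 10 the 46 had 0.05, -0.02, 0.08 and -0.02, and the other 864 genes had 0.01, 0.06, -0.01 and 0.07. The group was thus above its length class in pairs 1 and 3 and below it in pairs 2 and 4. Chd4, a nucleosome remodeller, had a centred TE of -0.49, -0.42, -0.33 and -0.33 in WT and -0.55, -0.33, -0.30 and -0.40 in KO, a mean difference of 0.01 ± 0.08. The PI3K-like kinases, a family with Mtor and Trrap, had 0.39, -0.16, -0.13 and 0.21 over 6 genes. Mtor averaged 0.01 ± 0.21 and Trrap -0.03 ± 0.17. Nuclear pore proteins (27 of 28) had 0.01, 0.13, -0.06 and 0.06, and cytosolic aminoacyl-tRNA synthetases (20 genes) had 0.04, 0.11, -0.04 and 0.06. The 2 most abundant members of each of the 14 lists all had a mean TE difference smaller than its SD over pairs, from -0.11 for Hist1h1e to 0.14 for Ubr4.

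Of 161 mRNAs on a partial list of those bound by FMRP in brain, 141 were binned, 106 of them in bin 10. They had differences of -0.02, 0.03, 0.11 and 0.06, with 14 higher in 4 of 4 pairs (9.93%) and 4 lower (2.84%), against 6.13% of all binned genes in each direction. Within bin 10 the 106 had -0.01, 0.05, 0.08 and 0.06, and the other 804 genes had 0.02, 0.06, -0.01 and 0.07. The list was thus above its length class in pair 3 and not in the other pairs. Of the 106, 12 were higher in 4 of 4 pairs (11.3%) and 2 lower (1.89%), against 8.46% and 3.52% of the bin. The median TE of the 141 was -0.96, -1.01, -0.93 and -1.00 in WT and -1.02, -0.96, -0.72 and -0.75 in KO cultures. KO cultures 3 and 4 were above all WT cultures, and KO culture 1 was below them. Ptprz1, a receptor phosphatase of neural stem cells and second to Eef2 in RNA CPM on the list, had 5558, 2296, 930 and 1003 CPM of RNA in WT and 2838, 3385, 1023 and 732 CPM in KO. Its TE averaged 0.04 ± 0.09 higher in KO.

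**Figure D5:**
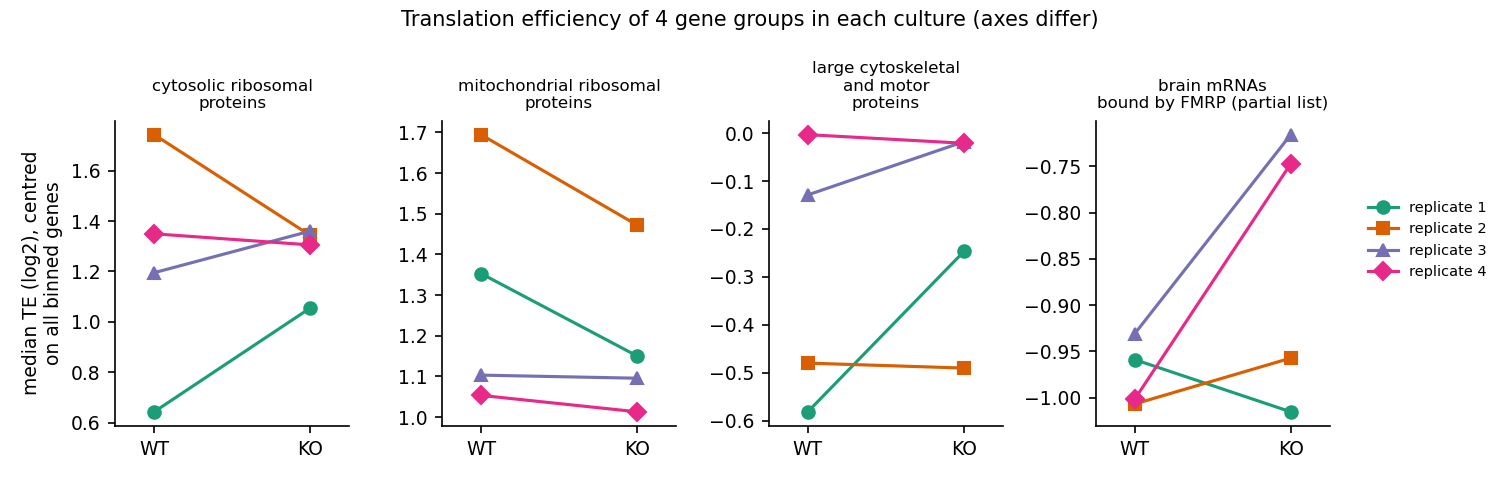
Median TE (log2, centred on all binned genes) of 4 gene groups in each culture, with WT left and KO right in each panel, lines joining cultures of the same replicate number, and a vertical axis that differs between panels. Cytosolic ribosomal proteins range from 0.64 to 1.74 in WT with the KO cultures between, and the FMRP-bound mRNAs of KO cultures 3 and 4 lie above the WT cultures.

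Among single genes of bin 1 with the same direction in all pairs and a mean of at least 20 CPM in both assays, Btg2 had the largest positive mean difference. Btg2, an antiproliferative gene of neural progenitors, had a centred TE of 2.38, 1.86, 2.04 and 1.90 in WT and 2.83, 2.80, 2.69 and 2.99 in KO, with no overlap and a mean of 0.79 ± 0.28. Its RNA was 110, 21.5, 15.0 and 15.6 CPM in WT and 30.9, 15.2, 2.68 and 3.95 CPM in KO, lower in each pair. WT culture 1 raised its mean RNA, 26.8 CPM, and KO cultures 3 and 4 were low. Its footprints were 532, 66.2, 53.0 and 50.1 CPM in WT and 198, 91.1, 15.2 and 28.6 CPM in KO. They were lower in KO in pairs 1, 3 and 4, where TE was higher because RNA fell more. Its edgeR p for TE was 0.679 (adjusted p = 1). Nsg2 and Cox7a2l followed at 0.32 ± 0.42 and 0.30 ± 0.22. The largest negative means were those of 0610007P14Rik at -0.54 ± 0.24, Mrpl11, a mitochondrial ribosomal protein, at -0.43 ± 0.37 and 2700094K13Rik at -0.42 ± 0.20. The most abundant genes of bin 1 showed no common direction: Rpl13a averaged 0.07 ± 0.34, Tpt1 0.16 ± 0.41 and Ftl1, the ferritin light chain, 0.01 ± 0.69.

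By the same rule, Gprasp1, which encodes a protein that sorts receptors to lysosomes, had the largest positive mean in bin 10. Its TE was -0.17, -1.09, 0.71 and 0.12 in WT and 0.15, -0.18, 1.16 and 1.51 in KO, an overlapping pair of ranges with a mean difference of 0.78 ± 0.48. Tro averaged 0.46 ± 0.17 and Btaf1 0.41 ± 0.40. The largest negative means were smaller, at -0.25 ± 0.23 for Ptprm, -0.22 ± 0.05 for Nid2, a basement membrane protein, and -0.21 ± 0.16 for Plxnb3. Nid2 had a TE of 0.23, 0.16, 0.29 and 0.05 in WT and 0.03, -0.05, -0.00 and -0.18 in KO, with no overlap, although KO culture 1 at 0.03 lay just below WT culture 4 at 0.05. Nes, which encodes the neural stem cell filament nestin, had the highest mean RNA CPM of bin 10, followed by Ptprz1 and Ptprs, and its TE differed by 0.11 ± 0.18.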

How the data were processed

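The authors deposited estimated counts per gene, whole numbers in the table, and TPM that had been rounded (a score here, used only to estimate length). Per the submitters' processing notes, the build was mm10 and the tools included RSEM 1.2.11, TopHat2 2.0.9, Bowtie2 2.1.0 and cutadapt 1.7.1. For the role of each tool, strand and identifier collapsing, nothing is stated: not given in the sources used here. Similar genes share reads that RSEM divides, and without strand antisense genes cannot be told apart. The authors' own comparison table was not analysed here.

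Of the rows, 27 held no gene symbol (0.244% to 0.422% of a library's counts) and were left out. All columns had a sample (0 without). RefSeq (GRCm38.p6) held 19269 of the 20409 symbols, 8674 of them binned.

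CPM used a pseudocount of 0.5 counts. Length estimates from RNA and from footprints correlated across genes (Spearman 0.996), and length correlated with RNA CPM at 0.305. Rounding makes the estimate uncertain for low genes. Slopes, bin medians and list medians were described without a test, as means ± SD over 4 pairs. Per gene, TE was tested as the assay by genotype interaction in edgeR 4.0.16 (R 4.3.3), quasi-likelihood and two-sided, with TMM within each assay, filterByExpr, an identifier term for footprints and Benjamini-Hochberg adjustment. The main fit had no term for culture or replicate. limma 3.58.1 and DESeq2 1.42.0 were alternatives. Python 3.11.15 was used for the rest. On simulated data of 10863 genes the test made 1 false call, counted over the genes left unchanged.

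WT and KO share replicate numbers 1 to 4 in the titles. The deviation of TE from the group mean correlated within pairs at 0.259, 0.819, 0.325 and 0.674, all over 0.1, and the numbers were taken to pair the cultures. The same-numbered libraries also correlated at 0.583 to 0.689 in RNA and 0.492 to 0.622 in footprints.

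Named genes were Fmr1, the 10 binned genes of smallest p, the 3 largest positive and negative mean TE differences of bins 1 and 10 among genes with the same direction in 4 of 4 pairs and at least 20 CPM in both assays, the 3 most abundant genes of those bins and the 2 most abundant members of each list. A result for 1 gene that this rule takes is left out. Genes whose start is printed were chosen for their tract and RNA level. Members, lists and tests were chosen with earlier results of these data known.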

Additional observations from a re-analysis of the deposited data

Results flagged for a closer look

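In groups of 4 cultures, 6 of 146 groups (slopes, bins, gene lists and named genes in each genotype) had 1 culture that stood far from the other 3 by Dixon's criterion, the gap to the nearest culture relative to the range. Chance gives about 1 in 20 such groups. All 6 concern the TE of a named gene. TE is on the log2 scale, centred on the culture's median. Cox7a2l in WT replicate 3 was at 1.73, below 2.08 to 2.13. Ftl1 in KO replicate 4 was at -3.08, below -1.69 to -1.42. Ptprm in WT replicate 3 was at -0.220, above -0.70 to -0.63, and in KO replicate 1 it was at -1.03, below -0.76 to -0.71. Hist1h1d in KO replicate 2 was at 0.657, above 0.03 to 0.10. Nup188 in KO replicate 2 was at -0.852, above -1.81 to -1.75.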

How the results depend on the processing

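The mean KO minus WT slope of TE on length kept its sign under every other setting of counts, length estimate, gene set and abundance covariates, at 0.0217 to 0.0436 per doubling. Leaving out each culture in turn, with its same-numbered partner kept, gave -0.00513 to 0.0493. Without WT replicate 2 the direction turned, at -0.00513, whereas without the whole of pair 2 the slope was 0.0152. Values without a single culture are differences of unpaired means, so they also carry the split between replicates. The RNA slope ran from -0.0775 to 0.015, the footprint slope from -0.0327 to 0.0211 and the shift of bin 10 against bin 1 from -0.0266 to 0.176. The RNA slope and the shift also turned direction without WT replicate 2, and the footprint slope turned without WT replicate 1 or 2 or KO replicate 3 or 4. Of the mean TE differences of named genes, 22 values moved by more than the SD over pairs when a culture was left out. The percent of genes higher minus the percent lower in all pairs was -6.04 in bin 1 and 4.95 in bin 10. It was -8.07 in bin 1 at a mean count of 200. It was -12.5 and 10.3 without pair 1, -1.76 and 7.47 without pair 2 and -13.1 and 12.0 without pair 3, and in bin 1 -14.4 without pair 4. Fewer pairs make the same direction more frequent by construction.

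With the replicate block, edgeR called 0 genes for TE (35 higher and 26 lower at unadjusted p 0.05), as without it. TE calls were 0 in every fit run. Slopes on protein length were not run, and the counts of genes with the same direction were recomputed by leaving out pairs, not single cultures.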
